A study of Mus musculus with 8 samples.

Results

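The mRNAs that encode 7 RNA decay factors were followed in mouse splenic CD4+ T cells. The factors were the zinc finger proteins of the Zfp36 family (Zfp36, Zfp36l1 and Zfp36l2), the regnases Zc3h12a and Zc3h12d, and the roquins Rc3h1 and Rc3h2. Genes were taken by symbol from a table of 27179 rows, and all 7 were found there. Each of the 7 also lay among the 12605 genes with a mean of at least 0.5 RPKM over the libraries, which were the genes tested. RPKM, the reads of a gene scaled to the length of its transcript and to the reads of its library, was used throughout as the level of an mRNA.

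The RNA sequencing covered 8 libraries in 4 groups of 2, and every mouse was of the strain C.Cg-Foxp3tm2Tch/J, which carries a reporter of Foxp3, and 8 weeks of age. Control offspring (Ctr) came from untreated parents, and Cd offspring from parents given 10 ppm CdCl2 in their drinking water through mating and, for the mothers, pregnancy. CD4+ T cells were purified by negative selection and sorting and either lysed at once (unstimulated, 0 hours) or cultured with anti-CD3/CD28 beads, which engage the T cell receptor and its costimulator, for 16 hours (stimulated). The replicates of a group carry the numbers 6 and 7, and the labels do not say which animals they came from. Because the unstimulated cells were not cultured, stimulation and time in culture cannot be told apart, and p-values measure the spread between these libraries only.

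Many mRNAs of activated T cells are short-lived because their 3′ untranslated regions (UTRs) carry destabilizing elements. Proteins of the Zfp36 family bind AU-rich elements and recruit the CCR4-NOT complex, which removes the poly(A) tail. Roquins bind stem-loops and also recruit CCR4-NOT, while Zc3h12a (Regnase-1) is an endonuclease that cuts stem-loops of mRNAs under translation. Together these factors restrain the cytokines and costimulatory receptors of T cells, and the protease Malt1 cleaves Regnase-1 and the roquins once the T cell receptor is engaged.

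Most of the factors are themselves encoded by mRNAs with AU-rich sequence. For each gene the longest annotated 3′ UTR was read. The nonamer TTATTTATT, a core of the AU-rich element that Zfp36 proteins bind, was found in the annotated 3′ UTR of 5 of the 7 genes, Zfp36, Zfp36l1, Zfp36l2, Rc3h1 and Rc3h2, and in neither regnase. It was present in 7.61% of all 20971 annotated 3′ UTRs, and long UTRs hold it more often. Among UTRs of similar length, it was in 4.20% for Zfp36, 10.1% for Zfp36l1, 9.95% for Zfp36l2, 28.2% for Rc3h1 and 22.3% for Rc3h2. The sites are shown because AU-rich sequence is what proteins of the Zfp36 family bind, and here it lies in the mRNAs that encode them. Each line gives 29 bases of GRCm38, 5′ to 3′ on the strand of the gene, with the nonamer in capitals, and the site of Il2, a cytokine mRNA and known AU-rich target, follows for comparison.
Zfp36: tatgacgactTTATTTATTgtattaagat
Zfp36l1: aactgttggaTTATTTATTttagaaattc
Zfp36l2: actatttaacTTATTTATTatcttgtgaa
Rc3h1: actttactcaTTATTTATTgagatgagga
Rc3h2: caaagacattTTATTTATTttactctgta
Il2: ttatctgaaaTTATTTATTatattgaatt

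The windows lie at chr7:28376951-28376979 for Zfp36, chr12:80108167-80108195 for Zfp36l1, chr17:84184914-84184942 for Zfp36l2, chr2:37373287-37373315 for Rc3h2 and chr3:37120898-37120926 for Il2, all on the minus strand, and at chr1:160970043-160970071 on the plus strand for Rc3h1. A match is a description of the sequence and not a measured binding site. Of all 24 mRNAs of a list of known targets of these factors, 7 (29.2%) carried the nonamer, namely Bcl2, Csf2, Il2, Notch1, Ptgs2, Rel and Tnf.

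The promoters of Zfp36 and Zfp36l1 are set side by side because these related genes moved in opposite directions. Each line gives the 120 bases of RefSeq GRCm38.p6 that precede the start site, on the minus strand, at chr7:28379229-28379348 for Zfp36 and chr12:80113014-80113133 for Zfp36l1. Capitals mark every match to the motifs searched on both strands, which were the TATA box (TATAAA), the GC box (GGGCGG), the AP-1 site (TGACTCA), the cyclic AMP response element (TGACGTCA), the Egr site (GCGGGGGCG), the NF-kB site and the serum response element, through which growth factors induce immediate early genes.
Zfp36: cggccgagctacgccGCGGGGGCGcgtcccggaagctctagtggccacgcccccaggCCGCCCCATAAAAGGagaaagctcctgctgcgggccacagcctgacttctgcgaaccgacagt
Zfp36l1: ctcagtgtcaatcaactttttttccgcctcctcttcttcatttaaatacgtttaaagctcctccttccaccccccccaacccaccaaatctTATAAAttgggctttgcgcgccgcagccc

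The stretch of Zfp36 held an Egr site that starts 105 bases before the start site, a GC box at 63 bases and a serum response element at 58 bases, which overlaps the GC box by 1 base. The stretch of Zfp36l1 held a TATA box at 29 bases. Over 32851 promoter windows of 300 bases, 2.91% held an Egr site, 1.63% a serum response element, 35.7% a GC box and 13.6% a TATA box. Windows were available for 6 of the 7 genes, all but Zfp36l2. The serum response element and the Egr site were found in Zfp36 alone of the 6, while Zc3h12a held 5 GC boxes, Zc3h12d held 1, Rc3h1 held 6 and an AP-1 site, and Rc3h2 held no match. An AP-1 site was in 5.20%, an NF-kB site in 4.51% and a cyclic AMP response element in 1.79% of all windows.

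The libraries held 15542732 to 25486791 reads on genes (median 19434588), and the correlation between the libraries of a group over the genes tested was 0.983 to 0.990 (Pearson). Each value of the 7 genes rested on at least 1264 reads. The summed level of the T cell markers Cd3e, Cd3g, Cd4, Lck and Cd28 was 1627 to 1734 RPKM in unstimulated and 1113 to 1151 RPKM in stimulated libraries. Of the B cell markers, Ms4a1 was listed at 0 in every library, while Cd79a was at 2.87 to 3.38 RPKM in unstimulated and 4.15 to 4.73 RPKM in stimulated libraries (adjusted p = 0.0177 in control and 0.00408 in Cd offspring, limma). Cd8b1 was at 9.40 to 11.7 RPKM and Cd8a below 0.2 RPKM. Of the regulatory T cell markers, Foxp3 was at 4.48 to 5.08 RPKM in unstimulated and 5.98 to 7.69 RPKM in stimulated libraries. Its log2 fold change was 0.41 (adjusted p = 0.0137, limma) in control and 0.68 (adjusted p = 0.0011, limma) in Cd offspring. Ikzf2 was at 1.84 to 3.75 RPKM. The myeloid marker Cd14 was listed at 0 in every library, and Lyz2 and the 5 erythroid markers were below 0.1 RPKM. The NK cell marker Klrb1c fell from 4.32 ± 0.0444 to 0.220 ± 0.103 RPKM (SD, n = 2) in control offspring, with Ncr1 at or near 0. The summed myeloid markers went from 1.87 to 2.03 RPKM in unstimulated to 0.380 to 0.582 RPKM in stimulated libraries, and the part of these cells in the results was not tested. Xist was at 49.3 to 67.1 RPKM and no Y-linked gene of the list exceeded 0.0105 RPKM. This is the pattern of female cells in every library, so no library stood apart by sex.

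Of the 7 factors, Zfp36 and Zfp36l2 fell and Zc3h12d rose by more than 2-fold with stimulation, in both control and Cd offspring. Zfp36l1 and Rc3h1 rose by less than 2-fold in both, and Zc3h12a did not pass the test in either. The Zfp36 family thereby changed in makeup, and Zfp36l1 replaced Zfp36 as its most abundant mRNA in all 4 stimulated libraries. No factor passed the test between Cd and control offspring.

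**Figure D1:**
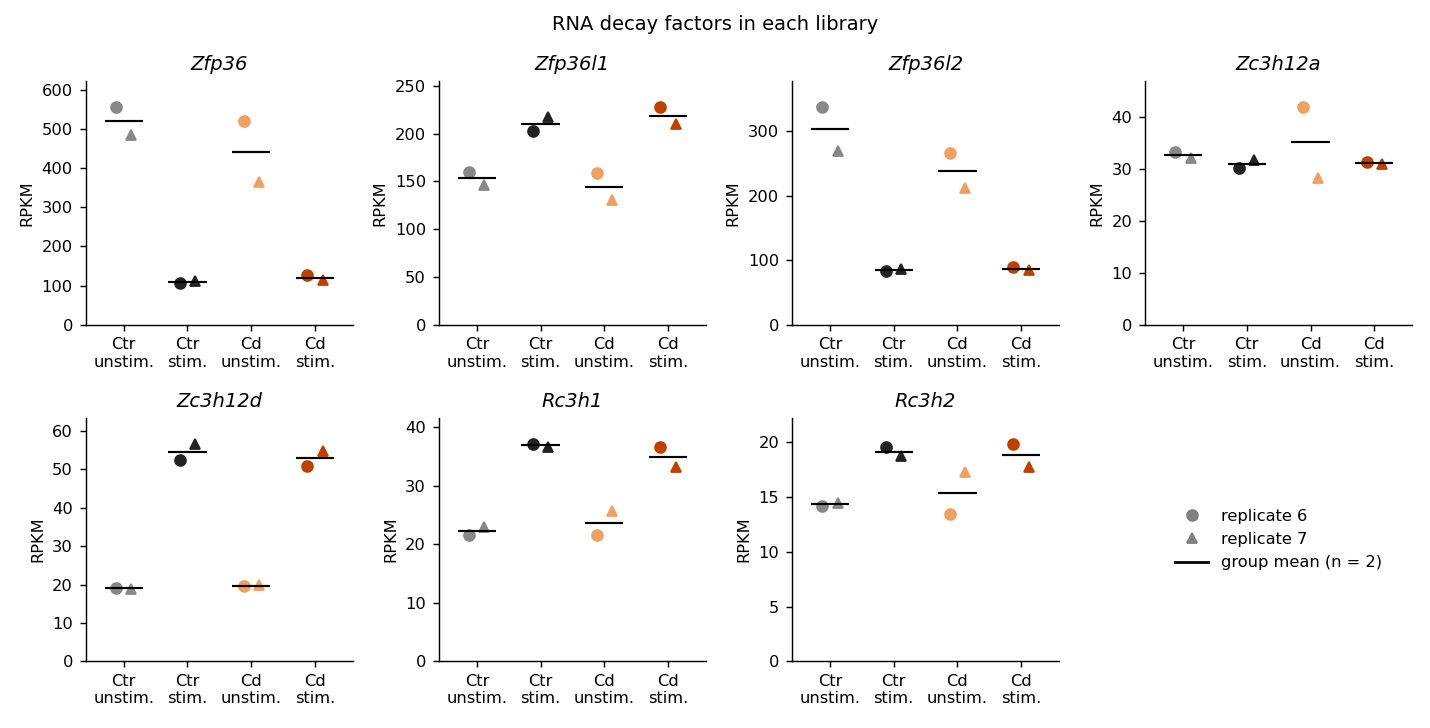
Level of each RNA decay factor in RPKM (vertical axes, from 0) in the 4 groups. Points are single libraries, circles replicate 6 and triangles replicate 7, and lines are group means (n = 2). Zfp36 and Zfp36l2 are lower and Zc3h12d is higher in every stimulated library than in every unstimulated one, while the unstimulated Cd libraries of Zfp36 and Zc3h12a lie far apart.

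In control offspring, stimulation was first judged at the study's thresholds, more than 2-fold with an adjusted p under 0.01 (limma, Benjamini-Hochberg adjustment over the 12605 genes). Of the 7 factors, 1 was higher and 2 were lower at these thresholds, while 11.5% of all genes tested were called higher and 7.17% lower. At an adjusted p under 0.05 with no fold threshold, 4 were higher and 2 lower, and 36.9% of all genes were higher and 27.8% lower. Fold changes are differences of log2(RPKM + 0.1), and the median over all genes tested was 0.070.

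Zfp36, also known as tristetraprolin, encodes an AU-rich element binding protein and is an immediate early gene. In control offspring it was at 555 and 483 RPKM in the unstimulated and at 106 and 110.4 RPKM in the stimulated libraries. The unstimulated Cd libraries were at 520.2 and 363 RPKM and the stimulated ones at 126 and 114 RPKM. All 4 unstimulated libraries lay far above all 4 stimulated ones, and the lowest unstimulated library was Cd replicate 7. How many of all genes separate by stimulation in this way was not counted, here and for the factors below. In control stimulation 8542 of the 12605 genes had an unadjusted p under 0.05 (limma). Its level fell by 2.26 on the log2 scale (standard error, SE, 0.16, adjusted p = 1.12e-05, limma) in control offspring and by 1.85 (SE 0.16, adjusted p = 3.2e-05, limma) in Cd offspring. By mean level Zfp36 was the gene of rank 85 of the 12605 in unstimulated and of rank 561 in stimulated cells of control offspring.

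Zfp36l2, which with Zfp36l1 restrains the cell cycle of developing lymphocytes, moved the same way. Control libraries were at 337 and 269.95 RPKM before and at 83.5 and 86.8 RPKM after stimulation. Cd libraries were at 266 and 211 RPKM before and at 89.0 and 84.7 RPKM after it. The unstimulated and stimulated libraries did not overlap, and the 4 stimulated libraries differed from one another far less than the 4 unstimulated ones. The log2 fold change was -1.82 (SE 0.13, adjusted p = 1.24e-05, limma) in control and -1.45 (SE 0.13, adjusted p = 4.22e-05, limma) in Cd offspring.

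Zfp36l1, the third member expressed here, went the opposite way. Its level in control offspring was 160.2 and 146 RPKM without and 202 and 217 RPKM with stimulation. For Cd libraries the values were 158 and 130.5 RPKM without and 228 and 210.03 RPKM with it. Every stimulated library lay above every unstimulated one, by a smaller margin than for its relatives. The log2 fold change was 0.46 (SE 0.099, adjusted p = 0.00458, limma) in control and 0.61 (SE 0.099, adjusted p = 0.00109, limma) in Cd offspring, under 2-fold in both. The fourth member known in mouse, Zfp36l3, which is placental, had a mean of at most 0.0197 RPKM in any group and was not tested.

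Added up, the mRNAs of the 3 Zfp36 genes were at 705 to 1052 RPKM in the unstimulated and at 392 to 443 RPKM in the stimulated libraries. Zfp36 made up 51.5% to 55.1% of this sum in the 4 unstimulated libraries and 26.6% to 28.5% in the 4 stimulated ones. Zfp36l1 made up 15.2% to 18.5% and 51.3% to 52.4%, respectively. The share of Zfp36l2 was 28.2% to 32.0% without and 20.1% to 21.3% with stimulation. After stimulation the sum was smaller and Zfp36l1 was its largest part, and the shares of control and Cd libraries lay close together in each state. These sums and shares were chosen after the values were seen and are given as a description.

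**Figure D2:**
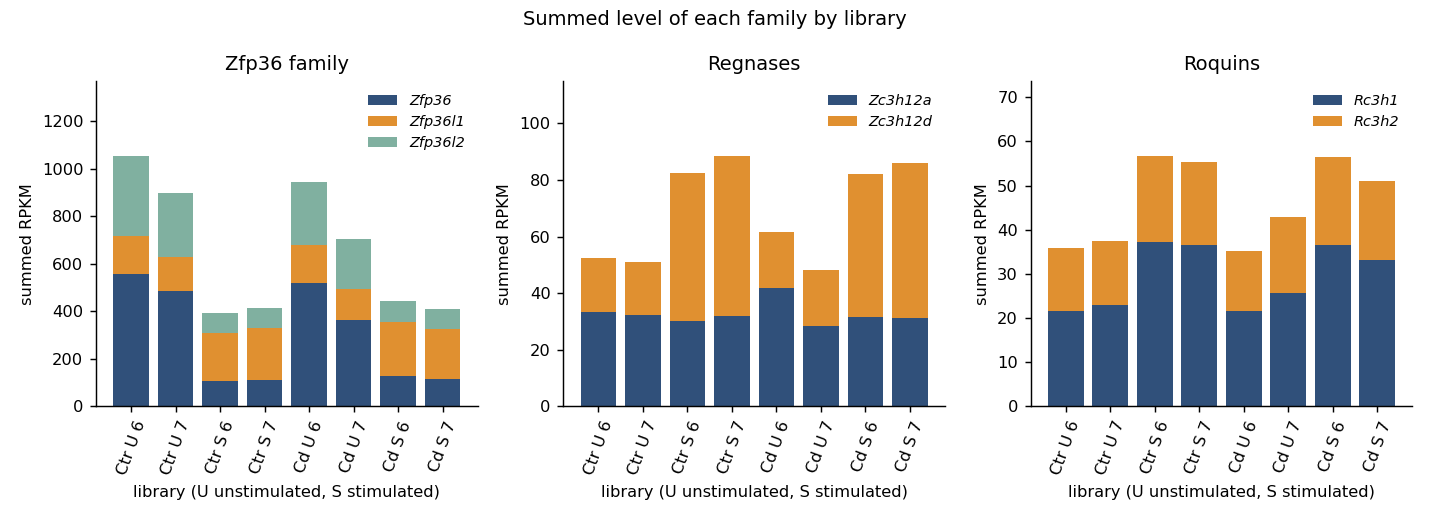
Summed RPKM of the Zfp36 family, the regnases and the roquins (vertical axes) in each of the 8 libraries, with bars divided by gene. The Zfp36 family sums to 705 to 1052 RPKM in unstimulated (U) and 392 to 443 RPKM in stimulated (S) libraries, and Zfp36l1 takes the largest part of the stimulated bars, while the sums of regnases and roquins are higher in stimulated libraries.

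Zc3h12d, or Regnase-4, is a lymphocyte-enriched relative of Regnase-1. Its control libraries were at 19.1 and 18.9 RPKM when unstimulated and at 52.3 and 56.6 RPKM when stimulated. The Cd libraries were at 19.6 and 19.9 RPKM and at 50.8 and 54.8 RPKM, respectively. The 4 unstimulated libraries spanned less than 1 RPKM, and all stimulated libraries lay well above them. The log2 fold change was 1.51 (SE 0.060, adjusted p = 9.34e-07, limma) in control and 1.42 (SE 0.060, adjusted p = 1.32e-06, limma) in Cd offspring, and of the 7 factors it alone rose by more than 2-fold.

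Zc3h12a encodes Regnase-1 itself, a brake on T cell activation. In control offspring it was at 33.2 and 32.1 RPKM in unstimulated and at 30.3 and 31.8 RPKM in stimulated cells. Both stimulated control libraries thus lay below both unstimulated ones, by a small margin. Among Cd libraries it was at 41.9 and 28.4 RPKM without and at 31.4 and 31.1 RPKM with stimulation, so that the unstimulated libraries enclosed the stimulated ones. The log2 fold change was -0.073 (95% confidence interval -0.43 to 0.29, adjusted p = 0.697, limma) in control and -0.14 (95% confidence interval -0.50 to 0.22, adjusted p = 0.443, limma) in Cd offspring. The value in Cd offspring turned on the unstimulated library used: without unstimulated replicate 6 it was 0.14, and without unstimulated replicate 7 it was -0.42 with an adjusted p of 0.000894. Cleavage of the protein by Malt1 is not measured by mRNA levels.

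Zc3h12d made up 31.8% to 41.2% of the summed regnase level in unstimulated and 61.8% to 64.0% in stimulated libraries. The 3 other mRNAs of the same nuclease family that passed the filter, Zc3h12b, N4bp1 and Khnyn, did not pass the test in either stimulation. Khnyn, a cofactor of the antiviral protein ZAP, was at 22.9 RPKM in unstimulated and 24.2 RPKM in stimulated control cells, and N4bp1, a Malt1-cleaved nuclease, at 9.99 and 11.3 RPKM. Zc3h12c and Nynrin did not reach 0.5 RPKM on average.

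Rc3h1 encodes Roquin-1, whose mutation drives the expansion of follicular helper T cells in sanroque mice. Control cells held 21.6 and 22.9 RPKM without and 37.1 and 36.6 RPKM with stimulation. Cd cells held 21.6 and 25.6 RPKM without and 36.6 and 33.2 RPKM with it. All stimulated libraries were above all unstimulated ones. On the log2 scale it rose by 0.73 (SE 0.088, adjusted p = 0.000224, limma) in control and by 0.57 (SE 0.088, adjusted p = 0.000864, limma) in Cd offspring.

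Rc3h2 encodes Roquin-2, which overlaps with Roquin-1 in function. Its level in control offspring was 14.2 and 14.5 RPKM without and 19.5 and 18.7 RPKM with stimulation. Its level in Cd offspring was 13.5 and 17.3 RPKM without and 19.9 and 17.8 RPKM with stimulation, and the closest libraries of the 2 states were less than 1 RPKM apart. The log2 fold change was 0.41 (SE 0.12, adjusted p = 0.0148, limma) in control offspring. In Cd offspring it was 0.29 (SE 0.12) and the adjusted p of 0.0549 (limma) missed the threshold, while it was 0.0126 with voom on recovered reads and 0.00297 without unstimulated replicate 7. In control offspring the adjusted p of Rc3h2 was 0.0734 after quantile normalization and 0.0526 to 0.0712 without stimulated replicate 6 or without either unstimulated replicate, so its call rests on these libraries and this scaling.

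The sum of both roquins was 35.1 to 42.9 RPKM in unstimulated and 51.0 to 56.7 RPKM in stimulated libraries. Rc3h1 took 59.6% to 61.6% of it without and 64.8% to 66.2% with stimulation.

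In Cd offspring 1 of the 7 factors was higher and 2 were lower after stimulation at the study's thresholds, against 11.4% and 7.24% of all genes. At an adjusted p under 0.05, 3 were higher and 2 lower, against 36.5% and 29.4% of all genes. The factors past each threshold can be read off the plot of fold changes.

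**Figure D3:**
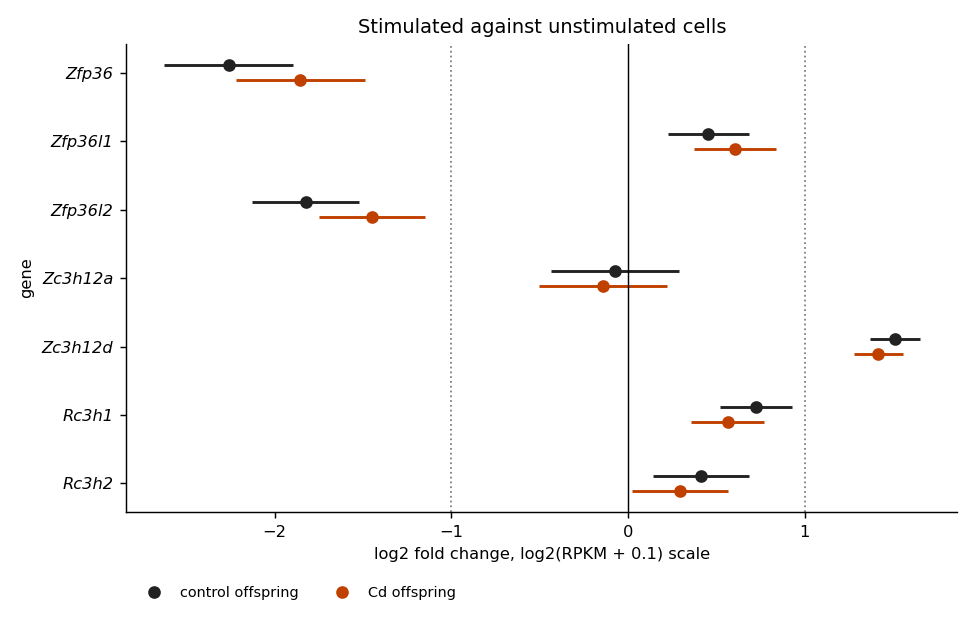
Log2 fold change, on the log2(RPKM + 0.1) scale, of each factor between stimulated and unstimulated cells of control (black) and Cd (orange) offspring. Points are estimates from limma, bars are 95% confidence intervals, and dotted lines mark a 2-fold change. Zfp36 and Zfp36l2 lie below and Zc3h12d above the dotted lines in both, the intervals of Zfp36l1 and Rc3h1 lie between 0 and 2-fold, and those of Zc3h12a span 0.

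Since RPKM is scaled by length, the levels of the factors can be ordered within a library. In all 4 unstimulated libraries the order from high to low was Zfp36, Zfp36l2, Zfp36l1, Zc3h12a, Rc3h1, Zc3h12d and Rc3h2. In all 4 stimulated libraries it was Zfp36l1, Zfp36, Zfp36l2, Zc3h12d, Rc3h1, Zc3h12a and Rc3h2. Within each group, neighbors in this order did not overlap between their 2 libraries. In both states the Zfp36 family stood above the regnases and roquins.

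The comparison of Cd with control offspring asked whether prenatal exposure altered these mRNAs. In unstimulated cells 0 of the 7 factors were called at an adjusted p under 0.05 (limma), against 0.896% of all genes (113 of 12605, 17 higher and 96 lower). At an unadjusted p under 0.05 there was 1, Zfp36l2, against 1748 of the 12605 genes, and voom on recovered reads also called 0. Zfp36l2 was lower in both Cd libraries, at 266 and 211 RPKM, than in both control libraries, at 337 and 269.95 RPKM, but the closest libraries differed by little. Zc3h12d was higher in both Cd libraries than in both control libraries, and how many of all genes separate in this way was not counted. Zfp36l2 was the factor with the largest difference. Its log2 fold change was -0.35 (95% confidence interval -0.65 to -0.046, adjusted p = 0.311, limma), and it ran from -0.51 to -0.18 with each library left out in turn. Zfp36 had a log2 fold change of -0.25 (95% confidence interval -0.62 to 0.11, adjusted p = 0.497, limma) and overlapped between the groups. Without Cd unstimulated replicate 7 the value of Zfp36 was 0.0070, so its difference rested on that library. For the other 5 factors the log2 fold change was between -0.089 and 0.094. Leaving out single libraries moved it from -0.20 to 0.36 for Zc3h12a, from -0.23 to 0.049 for Zfp36l1, from -0.085 to 0.27 for Rc3h2 and from -0.043 to 0.20 for Rc3h1, and 1 end of each range came from leaving out Cd unstimulated replicate 7.

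The Cd unstimulated replicate 7 was the library with the lowest level of Zfp36, Zfp36l1, Zfp36l2 and Zc3h12a among all unstimulated libraries and with the highest of Rc3h1 and Rc3h2. The summed level of a list of 12 genes, immediate early genes with the heat shock genes Hspa1a and Hspa1b, was also lowest there, at 2267 RPKM. It was 2899, 3004 and 3016 RPKM in the other unstimulated libraries. Junb, one of the 12, was at 667 RPKM in that library and at 884 to 1012 RPKM in the others. The part of this library's state in the values of the factors was not tested beyond leaving it out.

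In stimulated cells 0 of the 7 factors were called (limma), against 0% of all genes, and voom on recovered reads also called 0. At an unadjusted p under 0.05 there were 0 factors and 414 genes. Zfp36 was higher and Rc3h1 lower in both Cd libraries than in both control libraries, a separation that was not counted over all genes here either. The log2 fold change of the factors ran from -0.081 for Rc3h1 to 0.15 for Zfp36, and the adjusted p of each was 1. The widest 95% confidence interval was that of Zfp36, from -0.21 to 0.52, so a 2-fold effect of Cd lay outside the interval of every factor in stimulated cells.

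Whether stimulation acted differently in Cd and in control offspring was tested as an interaction. Of the 7 factors, 0 were called (limma), against 0.357% of all genes (45), and 0 by voom. At an unadjusted p under 0.05 there were 0 factors and 1332 genes. For Zfp36 the decrease in Cd offspring was smaller by 0.41 on the log2 scale (95% confidence interval -0.11 to 0.92, adjusted p = 0.548, limma). For Zfp36l2 the difference was 0.38 (95% confidence interval -0.050 to 0.80, adjusted p = 0.519, limma). Both fell more in control offspring, from the higher unstimulated level described above, and both intervals include 0. The difference for Zfp36 was 0.15 without Cd unstimulated replicate 7 and 0.67 without Cd unstimulated replicate 6, and that for Zfp36l2 was 0.21 and 0.54. For the other 5 factors the difference was -0.16 to 0.15, and leaving out single libraries moved it between -0.35 for Zc3h12a and 0.29 for Zfp36l1.

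**Figure D4:**
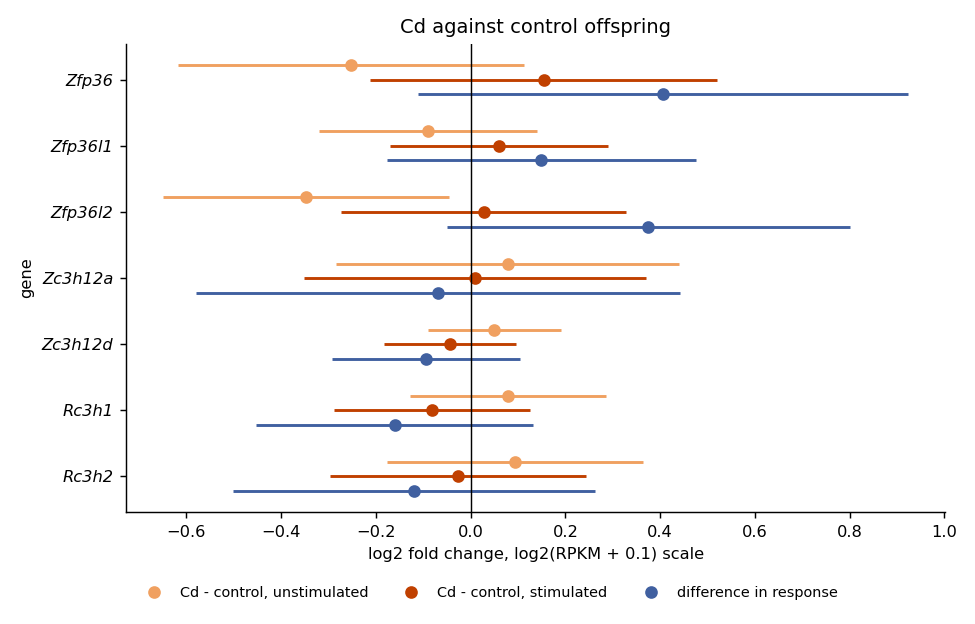
Log2 fold change, on the log2(RPKM + 0.1) scale, of each factor between Cd and control offspring in unstimulated (light orange) and stimulated (dark orange) cells, and the interaction of exposure with stimulation (blue). Points are limma estimates and bars are 95% confidence intervals. Of the 21 intervals only that of Zfp36l2 in unstimulated cells, -0.65 to -0.046, leaves out 0, and its adjusted p was 0.311.

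The effectors with which the factors work were read from lists of known genes. Of 18 tested genes of deadenylation, the CCR4-NOT and Pan2-Pan3 complexes, Parn and the Tob and Btg adaptors, 0 were called higher and 3 lower in stimulated control cells, and the median log2 fold change was 0.082. The 3 were Tob1 (-1.96), Btg1 (-1.25) and Btg2 (-1.27), antiproliferative adaptors that bring CCR4-NOT to mRNAs. Tob1 fell from 55.8 ± 2.76 to 14.3 ± 0.866 RPKM (SD, n = 2). Cnot1, the scaffold of CCR4-NOT, was at 58.9 RPKM without and 72.5 RPKM with stimulation, a log2 fold change of 0.30 (adjusted p = 0.0012, limma) under 2-fold. In Cd offspring 2 of these genes were called lower, Tob1 (-1.78) and Btg1 (-1.18), and Btg2 was at -0.91.

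Of 11 genes of decapping and 5′-to-3′ decay, 1 was called higher in control offspring, Dcp2, the decapping enzyme, with a log2 fold change of 1.10 that was 0.97 after quantile normalization. None of the 11 was called in Cd offspring, where Dcp2 was at 0.91 (adjusted p = 0.000647, limma). Of 15 genes of the exosome and its cofactors, 5 were called higher and 0 lower in control offspring, with a median of 0.85 against 0.070 over all genes. The largest increases were those of Dis3, a catalytic subunit, from 10.3 ± 0.514 to 35.6 ± 2.99 RPKM (SD, n = 2), and of Wdr61, a subunit of the Ski complex, at a log2 fold change of 1.29. Exosc2, Exosc7 and Exosc9 were the other 3, of which Exosc7 (1.03) was not called in 4 of 19 alternatives, 1 of them without control unstimulated replicate 7, and Exosc9 (1.13) was at 0.99 after quantile normalization. In Cd offspring 4 of the 15 were called higher and 0 lower.

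Of 16 genes that regulate or assist the factors, 1 was called higher and 1 lower in both control and Cd offspring. The higher one was Mapkapk2, the kinase MK2, which phosphorylates and restrains Zfp36, from 29.0 ± 1.02 to 65.0 ± 0.461 RPKM (SD, n = 2) in control offspring. The lower one was Arid5a, which stabilizes mRNAs that Regnase-1 cuts, at a log2 fold change of -1.24. Malt1 was at 39.9 RPKM without and 44.9 RPKM with stimulation (log2 fold change 0.17, adjusted p = 0.0473, limma). Upf1, the helicase that Regnase-1 needs, was at 40.5 and 46.4 RPKM.

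Of 24 known target mRNAs, 18 passed the filter, and 12 were called higher and 3 lower in stimulated control cells, with a median log2 fold change of 2.13 against 0.070 over all genes. Most of them are activation genes, and the list was chosen with results of these data known. Irf4, a transcription factor and Regnase-1 and roquin target, was at 2.65 ± 0.298 RPKM without and 543 ± 25.7 RPKM with stimulation (SD, n = 2). Il2 was at 0.610 ± 0.131 and 51.6 ± 1.98 RPKM (SD, n = 2). The other higher targets were Tnf, Ccl3, Cd69, Myc, Rel, Icos, Tnfrsf4, Tfrc, Ctla4 and Nfkbid, with log2 fold changes of 1.16 for Cd69 to 5.12 for Tnfrsf4. The call of Ccl3 rested on 2 reads in each unstimulated library and was lost with a pseudocount of 1, without either of them and without stimulated replicate 7.

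The 3 lower targets were Nfkbiz, an atypical inhibitor of NF-kB, at a log2 fold change of -1.43, Ifng at -1.44 and Bcl2 at -1.13. The call of Ifng was lost without control unstimulated replicate 6 and without either control stimulated replicate, with an adjusted p of up to 0.0168 (limma). Nfkbiz thus moved opposite to its relative Nfkbid (2.10), another target of the same factors. In Cd offspring 12 targets were called higher, among them Ccl3 in only 11 of 18 alternatives, and lost without any 1 of 5 libraries, both control and both Cd unstimulated ones and Cd stimulated replicate 7. Lower were 2, Nfkbiz and Ifng, and Bcl2 was at -0.91 (adjusted p = 6.17e-06, limma), under 2-fold.

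**Figure D5:**
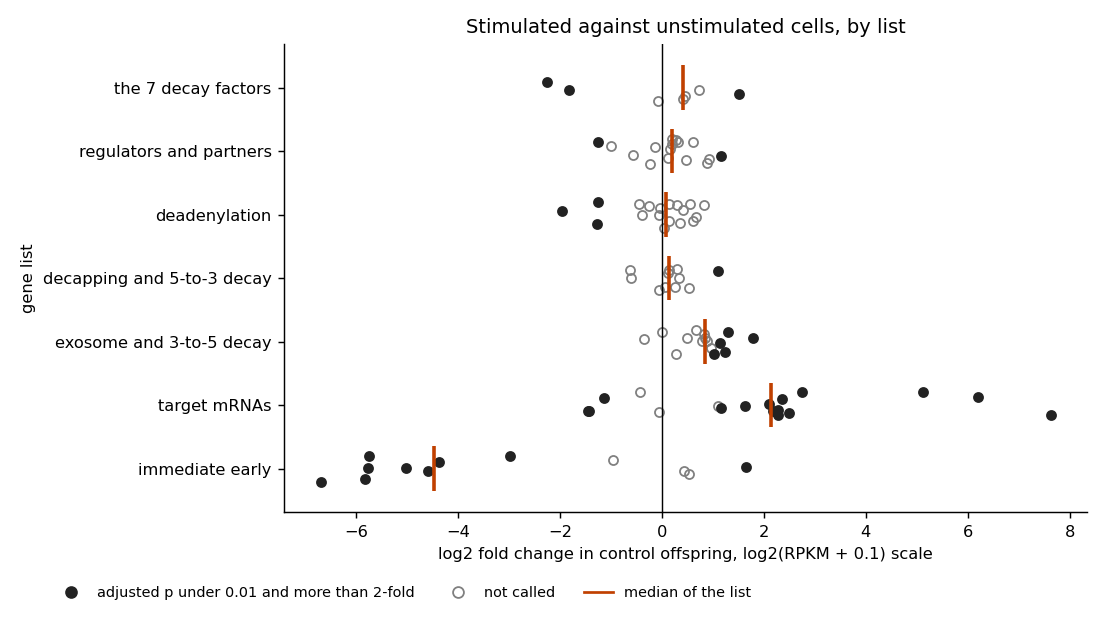
Log2 fold change, on the log2(RPKM + 0.1) scale, between stimulated and unstimulated cells of control offspring for the genes tested of 7 lists (rows). Filled points passed an adjusted p under 0.01 and 2-fold, open points did not, and orange bars are the medians of the lists. The medians are 2.13 for target mRNAs, 0.85 for the exosome and -4.47 for the immediate early list, which also holds Hspa1a and Hspa1b. Those of deadenylation and decapping genes lie near 0.

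In unstimulated cells, against 96 of all 12605 genes called lower and 17 called higher in Cd than in control offspring, 2 of the 18 tested targets were lower and 0 higher. These 2, named after their values were seen, were Il2, with 5 and 6 reads in Cd and 12 and 8 reads in control libraries, and Bcl2, at 29.1 ± 0.772 and 36.8 ± 0.304 RPKM (SD, n = 2). The adjusted p was 0.0409 for Il2 and 0.0432 for Bcl2 (limma), and each was called in few of 18 alternatives, 3 for Il2 and 4 for Bcl2. In stimulated cells 0 of the 18 were called (limma), with 2 at an unadjusted p under 0.05, against 414 of the 12605 genes.

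Zfp36 is itself an immediate early gene, a class transcribed within minutes of a stimulus. Of a list of 12 tested, 1 was called higher and 8 lower in stimulated control cells, with a median log2 fold change of -4.47. The list also held the heat shock genes Hspa1a (-4.37) and Hspa1b (-5.01), not of this class, and both were among the 8 lower. The higher one, Atf3 (1.65), was not called with a pseudocount of 1 or without control stimulated replicate 6. Klf4 and Jun had the largest decreases among those with a mean of at least 5 RPKM, at -6.69 and -5.82. Egr1 (0.54) and Nr4a1 (0.44), which the T cell receptor induces, did not pass the thresholds in control offspring, and of these Nr4a1 (1.02, adjusted p = 0.00218, limma) passed them in Cd offspring. That call was lost with median-of-ratios scaling, without Cd unstimulated replicate 7, where the value was 0.69, and without either Cd stimulated replicate. The interaction of Nr4a1 had an adjusted p of 0.502 (limma).

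Over the 8 libraries, the genes whose log2 level followed that of Zfp36 most closely were Peg13 (Pearson r = 0.998), Cebpb (0.998) and Junb (0.998), a subunit of AP-1. For Zfp36l2 they were Shisa5 (0.998), Ech1 (0.997) and AB124611 (0.997), and for Zfp36l1 Hdac3 (0.996), Gaa (0.992) and Timm17b (0.992). For Zc3h12d they were Phgdh (0.999), the first enzyme of serine synthesis, Cd320 (0.999) and Mtrr (0.999), the last 2 of which serve cobalamin uptake and use. For Rc3h1 they were Zfp266 (0.998), Ptcd3 (0.997) and Celf1 (0.997), the last another RNA-binding protein. For Rc3h2 they were Rps6kb1 (0.991), Tnpo1 (0.984) and Bpnt2 (0.983), and for Zc3h12a they were Map11 (0.971), Rbm42 (0.963) and Atxn2l (0.943). These are descriptions over 8 libraries that fall into unstimulated and stimulated ones, so many genes share such patterns.

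Genes with the nonamer were also counted over the whole table. Of 842 tested genes whose 3′ UTR holds it, 91 were called higher and 54 lower in stimulated control cells, with a median log2 fold change of 0.12, against 1278 and 721 and a median of 0.096 over the 10522 tested genes with an annotated 3′ UTR. Among the factors it was shared by both genes that fell, Zfp36 and Zfp36l2, and by Zfp36l1, Rc3h1 and Rc3h2, which rose in control offspring. It was absent from Zc3h12d, which rose most, and from Zc3h12a, which did not pass the test.

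The genes lie on GRCm38.p6 at chr7:28376784-28379228 for Zfp36, chr12:80107760-80113013 for Zfp36l1, chr17:84183924-84187947 for Zfp36l2, chr4:125118414-125127881 for Zc3h12a, chr10:7832323-7870397 for Zc3h12d, chr1:160906411-160974976 for Rc3h1 and chr2:37368861-37424370 for Rc3h2. Reads were counted over 1765 nucleotides of transcript for Zfp36 and up to 11011 for Rc3h1. Noncoding genes on the opposite strand overlap Zfp36 (Gm44710), Zfp36l1 (Gm26669), Zfp36l2 (AC132455.1) and Zc3h12d (Gm24726, a snoRNA). The sources used here do not say whether counting used the strand, so reads of these pairs cannot be told apart. Annotated genes on the same strand overlap Zc3h12d (Mir5104), Rc3h1 (Gm37052, Gm37809 and Gm37653) and Rc3h2 (Snord90), where the strand would not separate reads. In bulk RNA, fewer cells that express a factor and less of its mRNA per cell cannot be told apart either. Because RPKM is scaled to the reads of a library, a lower value is a smaller share of the reads, and the amount of mRNA per cell was not measured.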

How the data were processed

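The 8 libraries were prepared with the KAPA mRNA HyperPrep kit, which is made for mRNA, and sequenced. Per the study's methods, alignment to mm10 used Subread, and featureCounts assigned reads to RefSeq transcripts (versions and strand setting not given in the sources used here). The values the authors deposited are on a log2 scale, log2(RPKM + 1) + 0.0001, as read from the values. In 831 low genes, 91.8% of ratios between 2 of the libraries were those of whole reads after the back-transform, against 0.842% on the values as they stand. The test had been planned for RPKM and was run on the back-transformed values. Whole reads and library totals were recovered for all 17794 genes above 0 in at least 2 libraries.

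Groups were taken from the labels. The 12605 genes that averaged 0.5 RPKM or more were tested on log2(RPKM + 0.1) by limma 3.58.1 in R 4.3.3, with a mean for each of the 4 groups and trended empirical Bayes moderation, two-sided, with Benjamini-Hochberg adjustment. The fit has 4 residual degrees of freedom, and an exact permutation test of 2 libraries against 2 cannot go below p = 0.333. The fit and the recovery of reads were tested on simulated data. Sequences and motifs were read from RefSeq and GENCODE tables of GRCm38. Tables and plots used Python 3.11.15, numpy 2.4.6, pandas 2.3.3 and matplotlib 3.10.9.

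The 7 genes and the lists were chosen with earlier results of these data known. From each list, at most 4 called genes averaging 5 RPKM or more are named by rule, the 2 largest increases and the 2 largest decreases in control offspring; other list genes were named after their values were seen. For each factor the 3 genes of highest correlation are named, without genes named Gm or Mir or ending in Rik. The alternatives tried were other pseudocounts (0.5, 1), other filters (none, 1 RPKM), median-of-ratios and quantile scaling, replicate blocks, no trend, only the libraries of a comparison and each library left out. Limma voom on recovered reads was added after seeing the data.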

Additional observations from a re-analysis of the deposited data

How the results depend on the processing

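At the study's thresholds 3 of the 7 factors were called in control and in Cd offspring under each of the 19 alternatives, and 0 were called in any comparison that involves Cd and control. At an adjusted p under 0.05, the number was 5 to 6 in control and 5 to 7 in Cd offspring with each library left out, 5 in control offspring after quantile normalization and 6 in Cd offspring with voom. Quantile normalization moved the median of all genes in control stimulation by -0.10, and the log2 fold changes of Zfp36, Zfp36l2 and Zc3h12d under it were -2.14, -1.79 and 1.37. With each library left out, the log2 fold change in control offspring was -2.36 to -2.16 for Zfp36 and 1.45 to 1.57 for Zc3h12d. The sign changed in 1 of 133 values in Cd stimulation (Zc3h12a), in 5 of 126 for Cd in unstimulated cells, in 7 of 126 for Cd in stimulated cells and in 2 of 126 for the interaction, none of them called.

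A replicate block for the numbers 6 and 7 also called 3 factors in each stimulation and 0 for Cd. The numbers are not said to mark animals. Between unstimulated and stimulated libraries of the same number, deviations correlated at 0.064 in control and 0.0085 in Cd offspring. Over all pairs of groups, also those across exposures, the range was -0.11 to 0.064. The libraries were not treated as pairs. Over all genes, the number called for Cd in unstimulated cells, 113, was 14 with no trend, 65 with no filter, 52 with only the libraries compared and 211 with voom. It was 19 and 67 without control unstimulated replicate 6 or 7 and 61 without either Cd stimulated replicate. For Cd in stimulated cells, 0 became 9 with no filter, 2 with no trend and up to 3 with a library left out. The interaction's 45 became 28 with no filter, 25 with a replicate block by exposure and number, 4 with no trend and 111 with voom. It was 2 without Cd stimulated replicate 7, 3 and 28 without control stimulated replicate 6 or 7 and 27 without control unstimulated replicate 6. The cause was not tested. A fit that leaves out 1 library assumes that the lone sample varies like the other groups. Each value of the 7 factors rested on at least 1264 reads.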
